A study of Mus musculus with 12 samples.

Results

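The 6 wild-type testes of a study of SoxB1 genes in the developing mouse testis are described here, 6 of the 12 testes measured. They were taken by their labels alone, 3 as WT littermates of KI mice (WT 1, WT 2 and WT 3) and 3 as WT littermates of KO mice (WT 4, WT 5 and WT 6). KO stands for Sox3-KO and KI for Sox3-Sox2KI, both made with CRISPR/Cas9, and 3 KO and 3 KI testes make up the rest of the series. All 12 testes came from C57BL/6N mice at 2 weeks of age and each whole testis was hybridised to its own Affymetrix whole-transcript array, with no treatment. The labels call the replicates biological. How many litters, parents or founder lines stand behind either set of WT testes is not stated in the labels, so littermates may share a mother and a day of birth. The questions put to the data were what a normal testis of this age holds, which genes vary most between normal testes, and whether WT testes from KI and KO litters differ.

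At this age the first wave of spermatogenesis passes through the mouse testis. Spermatogonia, which arise from stem cells and commit to differentiate under retinoic acid, have begun to enter meiosis, and the most advanced germ cells are spermatocytes that reach the pachytene stage and switch on a large set of germ-cell genes. Because the wave moves on every day, the share of pachytene cells changes quickly with age and pace of development. Sertoli cells nurse the germ cells inside the tubules, peritubular cells surround the tubules, and Leydig cells between them make androgen from cholesterol.

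Signal is given as the deposited log2 value, on which a difference of 1 is a 2-fold difference, and every gene stands for 1 transcript cluster. The 22180 genes had a median level of 6.26 over the WT testes. Over all 41345 transcript clusters, with or without a gene symbol, the medians of the 6 arrays lay between 5.75 and 5.78. The 1088 olfactory receptor genes, most of which are silent outside the nose, had a median of 3.27, and their 95th percentile of 5.35 was taken as a background limit. By that limit 14480 genes (65.3%) were above background and 7700 were below it. The number of arrays limits the precision. WT 4 and WT 6 stood apart from the other 4 WT testes in the germ-cell genes described below, and the counts of variable genes and of variable pachytene genes are also given without them.

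The markers of the testis were there. Sertoli cell genes were above background for 26 of 27 members, with Trh (4.92 to 5.28) the one below. Cldn11, a tight junction protein of the Sertoli cell barrier, lay at 11.73, 11.71 and 11.77 in WT 1, WT 2 and WT 3, and 11.82, 11.74 and 11.86 in WT 4, WT 5 and WT 6. Sox9, the transcription factor that sets Sertoli cell fate, lay at 10.18, 10.14 and 10.23 in WT 1, WT 2 and WT 3, and 10.47, 9.99 and 10.28 in WT 4, WT 5 and WT 6. All 15 peritubular and smooth muscle genes, 14 interstitial fibroblast genes and 14 endothelial genes measured were above the limit, as were 10 of 12 Leydig cell genes and 14 of 17 macrophage and immune genes. The erythroid list had 0 of 5 members above it and the epididymis and efferent duct list 3 of 14. Adipose genes were above it for 7 of 9 members, and Adipoq, which fat cells secrete, lay between 5.15 and 5.83. Whole testis is a bulk sample, so fewer cells of a type and less RNA per cell cannot be told apart.

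Germ cells were represented from the stem cell to the pachytene spermatocyte. Of the list for undifferentiated spermatogonia 15 of 19 members were above background, and of the lists for committed progenitors and differentiating spermatogonia all 15 in each. Zbtb16, a transcription factor of undifferentiated spermatogonia, lay between 8.52 and 8.98, and Kit, the receptor of differentiating spermatogonia, between 9.51 and 9.70. Sox3, the gene deleted in the KO mice and known from progenitor spermatogonia, was at 7.26, 7.21 and 7.34 in WT 1, WT 2 and WT 3, and 7.36, 7.30 and 7.24 in WT 4, WT 5 and WT 6. Neurog3, a transcription factor of committed progenitors, was at 6.66, 6.45 and 6.50 in WT 1, WT 2 and WT 3, and 6.83, 6.49 and 6.83 in WT 4, WT 5 and WT 6. Sox3 was even over the 6 testes and Neurog3 was highest in WT 4 and WT 6.

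Meiotic genes were present in every WT testis. The list for meiotic entry and early prophase had 37 of 37 members above background and the pachytene list 30 of 32. Stra8, which retinoic acid turns on before meiosis, lay at 8.68, 8.55 and 8.66 in WT 1, WT 2 and WT 3, and 8.70, 8.75 and 8.98 in WT 4, WT 5 and WT 6. Sycp1, which joins paired chromosomes in the synaptonemal complex, lay at 10.89, 11.02 and 10.80 in WT 1, WT 2 and WT 3, and 10.56, 10.82 and 10.45 in WT 4, WT 5 and WT 6. WT 4 and WT 6 were the lowest of the 6 for Sycp1, and WT 6 was the highest for Stra8.

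Spermatid genes were mostly at background. Only 6 of 20 members were above the limit, and the protamine gene Prm1 (4.44 to 4.93) and the transition protein genes Tnp1 (4.04 to 4.95) and Tnp2 (4.66 to 5.28), which pack sperm chromatin, were all below it. Odf1, a protein of the sperm tail, was the exception in size, at 10.56 to 10.83 in all 6 testes with little spread. Probe positions were not known here, and whether that signal came from the Odf1 transcript was not tested. Acr, the acrosomal protease, lay at 7.18, 7.48 and 6.95 in WT 1, WT 2 and WT 3, and 5.97, 7.70 and 6.16 in WT 4, WT 5 and WT 6. Acr was thus lowest in WT 4 and WT 6, as most pachytene genes below, whereas Odf1 was highest in WT 4.

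Most genes varied little between normal testes. Over the 14480 genes above background the median standard deviation (SD) over the 6 WT testes was 0.112 and the median gap from the lowest to the highest testis was 0.301, a 1.23-fold range. A range of at least 2-fold was found for 335 genes (2.31%), of at least 4-fold for 60 and of at least 8-fold for 7. Of the 335 genes 268 were protein-coding. Only 7 of them (2.09%) were on the X chromosome, against 529 (3.65%) of all genes above background. Without WT 6 the count was 250, without WT 4 it was 303, and without both it was 39.

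**Figure D1:**
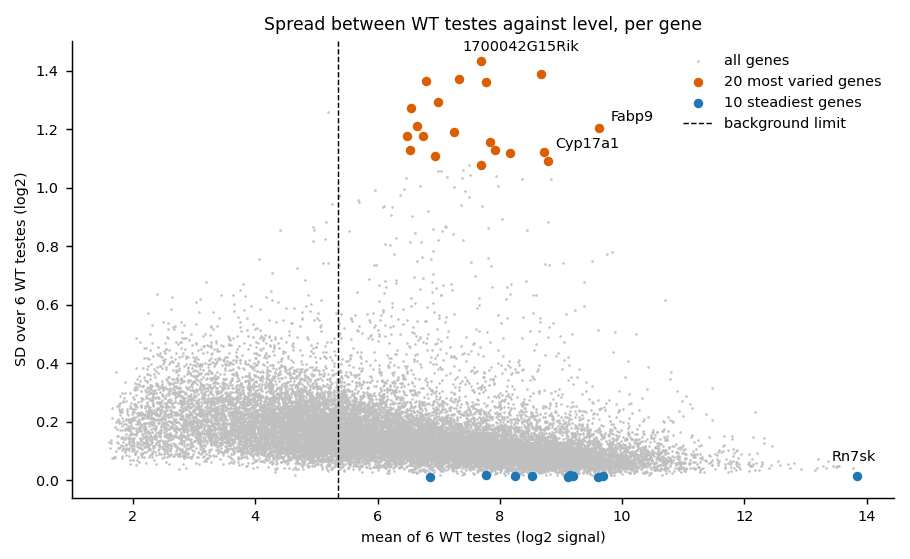
Each grey point is 1 of 22180 genes, with its mean log2 signal over the 6 WT testes on the x axis and its SD over them on the y axis. The dashed line is the background limit of 5.35, orange points are the 20 most varied genes above it (SD 1.08 to 1.43) and blue points the 10 steadiest genes above the median level (SD 0.0120 to 0.0172).

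The 20 genes with the largest SD among those above background had ranges of 5.39-fold to 9.84-fold and were chosen for that spread, so it is described and not tested. All but Cyp17a1 had their lowest values in WT 4 and WT 6, and 18 of the 20 were highest in WT 5. The genes were 1700042G15Rik, 1700006A11Rik, Catsperg2, Adam5, Ptchd3, Gm21269, Flacc1, 4930444F02Rik, Fabp9, Adam2, Spata4, 4933440M02Rik, 1700008K24Rik, Hsd3b6, 1700006J14Rik, Cyp17a1, Piwil1, 1700020N18Rik, Smim24 and Gm21221. The last of them had an SD of 1.08, and the next gene outside the 20 had the same SD at this rounding. Of the 20 genes 9 carry only a RIKEN or Gm name.

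The gene with the largest SD, 1700042G15Rik, lay at 8.73, 8.56 and 8.13 in WT 1, WT 2 and WT 3, and 6.02, 8.96 and 5.74 in WT 4, WT 5 and WT 6. Ptchd3, a patched-domain protein known from the testis, had the widest range and lay at 8.59, 8.78 and 8.01 in WT 1, WT 2 and WT 3, and 6.43, 9.05 and 5.75 in WT 4, WT 5 and WT 6. The gap between WT 4 and WT 6 and the lowest of the other 4 testes was 2.11 for 1700042G15Rik and 1.58 for Ptchd3. Several of the 20 genes encode parts of the mature sperm. Catsperg2, a subunit of the CatSper calcium channel of the sperm tail, was at 8.04, 8.46 and 7.77 in WT 1, WT 2 and WT 3, and 5.87, 8.49 and 5.34 in WT 4, WT 5 and WT 6. Adam2, the beta subunit of the sperm surface protein fertilin, was at 7.93, 8.25 and 7.30 in WT 1, WT 2 and WT 3, and 5.92, 8.42 and 5.68 in WT 4, WT 5 and WT 6. Adam5, a relative of Adam2, was at 7.67, 7.65 and 7.20 in WT 1, WT 2 and WT 3, and 5.02, 8.12 and 5.14 in WT 4, WT 5 and WT 6. For these 3 genes WT 3 was the lowest of the 4 higher testes and WT 5 the highest.

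Piwil1 and Fabp9 were among the 20 and also belong to the pachytene list. Piwil1, the PIWI protein that binds pachytene piRNAs, lay at 8.84, 8.9999 and 8.48 in WT 1, WT 2 and WT 3, and 6.84, 9.18 and 6.68 in WT 4, WT 5 and WT 6. Fabp9, a fatty acid binding protein of the developing acrosome region, lay at 10.47, 10.46 and 9.78 in WT 1, WT 2 and WT 3, and 8.45, 10.75 and 7.85 in WT 4, WT 5 and WT 6. The gap between WT 4 and WT 6 and the lowest other testis was 1.33 for Fabp9.

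The promoters of some of these genes are shown because MYBL1, the MYB factor of spermatocytes, is known to act at the start sites of pachytene genes, and because these genes moved together over the 6 testes. The motif searched was AACTGNC on either strand, in RefSeq windows on GRCm38.p6 from 250 bases before to 50 bases after each start site. It was found in 4199 of 32851 windows of all genes (12.8%) and in 1606 of 14201 windows of genes above background (11.3%). For the genes with a 2-fold range that were lowest in WT 4 and WT 6, it was in 56 of 252 windows (22.2%). Those windows cover 212 of the 281 genes. For the 20 most varied genes it was in 8 of 15 windows (53.3%), which cover 14 of the 20 genes. Of these 14 genes 5 hold the motif in the 250 bases before the start site, Hsd3b6 of Leydig cells among them. That stretch follows for the other 4, which were thus picked for holding the motif, written 5′ to 3′ on the strand of the gene with the motif in capitals. A match is a match of letters and shows no binding.
Piwil1: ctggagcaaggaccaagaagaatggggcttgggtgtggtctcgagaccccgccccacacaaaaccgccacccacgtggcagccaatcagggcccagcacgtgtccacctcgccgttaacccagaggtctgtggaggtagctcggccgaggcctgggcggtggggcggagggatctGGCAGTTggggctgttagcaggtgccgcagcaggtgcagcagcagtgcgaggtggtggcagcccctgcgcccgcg
Flacc1: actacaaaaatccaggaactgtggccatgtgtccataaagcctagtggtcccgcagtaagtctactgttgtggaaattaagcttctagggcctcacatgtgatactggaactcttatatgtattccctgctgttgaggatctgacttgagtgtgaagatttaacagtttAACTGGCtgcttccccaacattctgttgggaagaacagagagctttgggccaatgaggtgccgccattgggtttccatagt
4933440M02Rik: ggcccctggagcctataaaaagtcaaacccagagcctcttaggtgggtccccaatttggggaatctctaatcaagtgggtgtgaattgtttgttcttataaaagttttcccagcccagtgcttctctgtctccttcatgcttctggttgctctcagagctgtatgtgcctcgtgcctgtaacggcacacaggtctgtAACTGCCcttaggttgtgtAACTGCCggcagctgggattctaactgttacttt
1700020N18Rik: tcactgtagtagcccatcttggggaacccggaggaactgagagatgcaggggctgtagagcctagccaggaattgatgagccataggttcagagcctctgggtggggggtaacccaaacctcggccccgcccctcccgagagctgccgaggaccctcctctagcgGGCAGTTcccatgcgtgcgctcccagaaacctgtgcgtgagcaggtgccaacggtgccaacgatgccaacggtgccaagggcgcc

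The Piwil1 stretch lies at chr5:128735996-128736245, plus strand, and its match begins 75 bases before the start site. The Flacc1 stretch lies at chr1:58695990-58696239, minus strand, with the match beginning 81 bases before the start. The stretch of 4933440M02Rik lies at chr7:125349787-125350036, minus strand, and holds 2 matches, which begin 53 and 34 bases before the start. The stretch of 1700020N18Rik lies at chr1:91406030-91406279, minus strand, with the match beginning 85 bases before the start. Flacc1, which encodes a coiled-coil protein of the flagellum, lay at 7.16, 7.55 and 7.02 in WT 1, WT 2 and WT 3, and 4.95, 7.68 and 4.92 in WT 4, WT 5 and WT 6. The unnamed gene 4933440M02Rik lay at 7.29, 7.13 and 6.70 in WT 1, WT 2 and WT 3, and 5.14, 7.72 and 4.92 in WT 4, WT 5 and WT 6. A motif of RFX factors, GTTGCCAT, was in 12 of the 252 windows (4.76%) against 1.16% of windows of genes above background. The cyclic AMP response element TGACGTCA was in 4 of them (1.59%) against 2.84%, and the NR5A1 motif CAAGGTCA in 0 against 1.12%. None of these shares was tested.

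The same pair of testes was lowest over most of the variable genes. Among the 335 genes with a 2-fold range, WT 4 and WT 6 were the lowest 2 testes for 281 (83.9%), against 13.6% of all genes above background. WT 6 was the lowest of all for 216 genes and WT 4 for 82. WT 2 and WT 5 were the highest 2 for 208 genes (62.1%), against 13.4% of all genes above background. The reverse order, with WT 4 and WT 6 highest, was found for 10 genes. A decomposition of the genes above background into principal components put 56.2% of the variance between WT testes on the first component, with scores of 17.65 for WT 4 and 20.37 for WT 6. WT 3 scored -2.20, WT 1 -8.07, WT 2 -12.96 and WT 5 -14.79, so WT 5 lay farthest from the 2 other WT littermates of KO mice.

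Genes of the pachytene list, which was drawn up with earlier results of these data known and is no independent support, were also mostly lowest in WT 4 and WT 6. Their median SD was 0.344, against 0.112 over all genes above background, and 14 of the 30 members above background had a 2-fold range, against 2.31% of all such genes. WT 4 and WT 6 were the lowest testes for 23 of 32 members (71.9%). The count of members with a 2-fold range was 14 without WT 4, 11 without WT 6 and 0 without both, and the median SD was then 0.356, 0.292 and 0.188. The mean of the list was 7.77, 7.87 and 7.56 in WT 1, WT 2 and WT 3, and 7.16, 7.93 and 6.96 in WT 4, WT 5 and WT 6.

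Beside Fabp9 and Piwil1, the members of largest SD were Ldhc and Cers3. Ldhc, the lactate dehydrogenase of germ cells, lay at 7.75, 7.64 and 7.39 in WT 1, WT 2 and WT 3, and 5.70, 8.02 and 5.68 in WT 4, WT 5 and WT 6. Cers3, which makes ceramides with very long chains, lay at 9.48, 9.46 and 9.11 in WT 1, WT 2 and WT 3, and 7.85, 9.85 and 7.28 in WT 4, WT 5 and WT 6. Spag6l, a protein of the sperm axoneme, lay at 7.12, 6.99 and 6.78 in WT 1, WT 2 and WT 3, and 5.68, 7.29 and 5.35 in WT 4, WT 5 and WT 6. WT 4 and WT 6 lay below the other 4 testes by at least 1.69 for Ldhc, 1.26 for Cers3 and 1.10 for Spag6l. Kctd19, needed for spermatocytes to leave prophase, was at 10.18, 10.43 and 9.93 in WT 1, WT 2 and WT 3, and 9.19, 10.32 and 8.45 in WT 4, WT 5 and WT 6. Hspa2, the heat shock protein of spermatocytes, was at 10.22, 10.28 and 9.92 in WT 1, WT 2 and WT 3, and 9.47, 10.34 and 9.08 in WT 4, WT 5 and WT 6. Mybl1 itself had a smaller spread, at 9.07, 9.12 and 8.90 in WT 1, WT 2 and WT 3, and 8.67, 9.16 and 8.63 in WT 4, WT 5 and WT 6. The metabolic kinase Pgk2 (3.20 to 4.62) and the cyclin Ccna1 (5.21 to 5.59), which act in late meiosis and after it, were at or near background in every WT testis.

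The list for meiotic entry and early prophase held genes with and without that pattern. Its median SD was 0.148, 2 of 37 members had a 2-fold range, and WT 4 and WT 6 were lowest for 20 of 37 (54.1%), against 10.8% of all genes. Hormad1, a protein of the unpaired chromosome axis, lay at 9.31, 9.59 and 8.99 in WT 1, WT 2 and WT 3, and 8.70, 9.25 and 8.49 in WT 4, WT 5 and WT 6. Meiob, which helps repair meiotic breaks, lay at 8.67, 9.17 and 8.63 in WT 1, WT 2 and WT 3, and 8.39, 8.85 and 8.06 in WT 4, WT 5 and WT 6. Both were lowest in WT 6 and highest in WT 2. Dmc1, the meiotic recombinase, was even, at 9.32, 9.50 and 9.42 in WT 1, WT 2 and WT 3, and 9.57, 9.48 and 9.56 in WT 4, WT 5 and WT 6. Rec8, a meiotic cohesin subunit, also varied little, at 7.61, 7.49 and 7.60 in WT 1, WT 2 and WT 3, and 7.58, 7.53 and 7.78 in WT 4, WT 5 and WT 6. The mean of the list ran from 8.36 in WT 4 and 8.40 in WT 6 to 8.66 in WT 2.

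**Figure D2:**
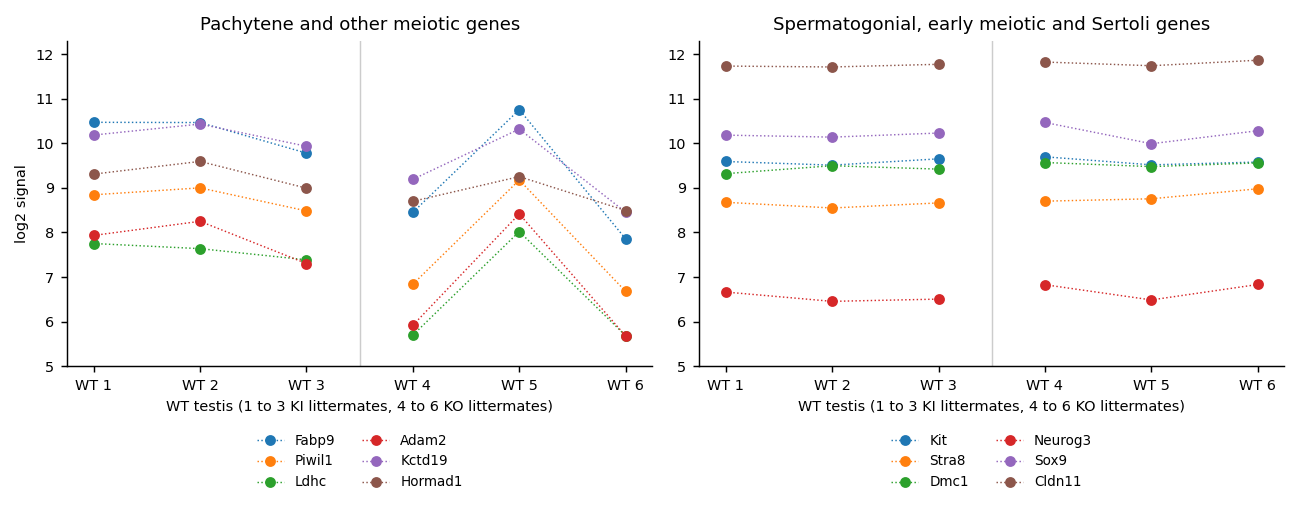
Log2 signal of 12 genes in each of the 6 WT testes, where a dotted line only joins the values of 1 gene within 1 set of littermates. On the left Fabp9, Piwil1, Ldhc, Adam2, Kctd19 and Hormad1 are lowest in WT 4 and WT 6, and on the right Kit, Stra8, Dmc1, Neurog3, Sox9 and Cldn11 each span no more than 0.48 over the 6 testes.

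The pan-germ cell list lay between the pachytene list and that for meiotic entry and early prophase. It was drawn up with Sycp3 (not measured here as a single gene), which the latter list also named. Its genes therefore need not mark all germ cells. Of 27 members of the pan-germ cell list 16 were lowest in WT 4 and WT 6, with a median SD of 0.226. Ddx4, the germ cell helicase, lay at 11.20, 11.34 and 11.05 in WT 1, WT 2 and WT 3, and 10.73, 11.30 and 10.68 in WT 4, WT 5 and WT 6. Tdrd5, a piRNA pathway protein, lay at 9.02, 9.25 and 8.82 in WT 1, WT 2 and WT 3, and 8.27, 9.23 and 8.10 in WT 4, WT 5 and WT 6. Dazl, an RNA-binding protein of germ cells, was even, at 12.08, 12.19 and 11.99 in WT 1, WT 2 and WT 3, and 12.05, 12.19 and 11.99 in WT 4, WT 5 and WT 6.

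The lists of earlier germ cells and of Sertoli cells had other patterns. The mean of the differentiating spermatogonia list was 9.12 to 9.16 over the 6 testes. That of the undifferentiated list was highest in WT 4 (6.91) and WT 6 (6.88), with the other 4 testes at 6.76 to 6.84. Committed progenitor genes had the same order, at 7.13 in WT 4 and 7.12 in WT 6 against 6.89 to 7.01. Of the Sertoli cell list 0 of 27 members were lowest in WT 4 and WT 6 and 11 were highest there, against 16.1% of all genes above background. Amh, the hormone that immature Sertoli cells make, was at 7.95, 7.85 and 7.78 in WT 1, WT 2 and WT 3, and 8.44, 7.78 and 8.17 in WT 4, WT 5 and WT 6. Its highest testes were WT 4 and WT 6. Cell division genes had a median SD of 0.0903 and list means of 8.996 to 9.050.

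Id4 did not follow its list. The gene marks spermatogonial stem cells and is known from spermatocytes as well, and it was the one member of the undifferentiated list with a 2-fold range. It lay at 7.37, 7.47 and 7.19 in WT 1, WT 2 and WT 3, and 6.73, 7.86 and 6.82 in WT 4, WT 5 and WT 6, with WT 4 and WT 6 lowest and WT 5 highest. Gfra1, the GDNF receptor of stem cells in the same list, lay at 6.66, 6.41 and 6.62 in WT 1, WT 2 and WT 3, and 6.56, 6.58 and 6.598 in WT 4, WT 5 and WT 6 and had no such order.

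**Figure D3:**
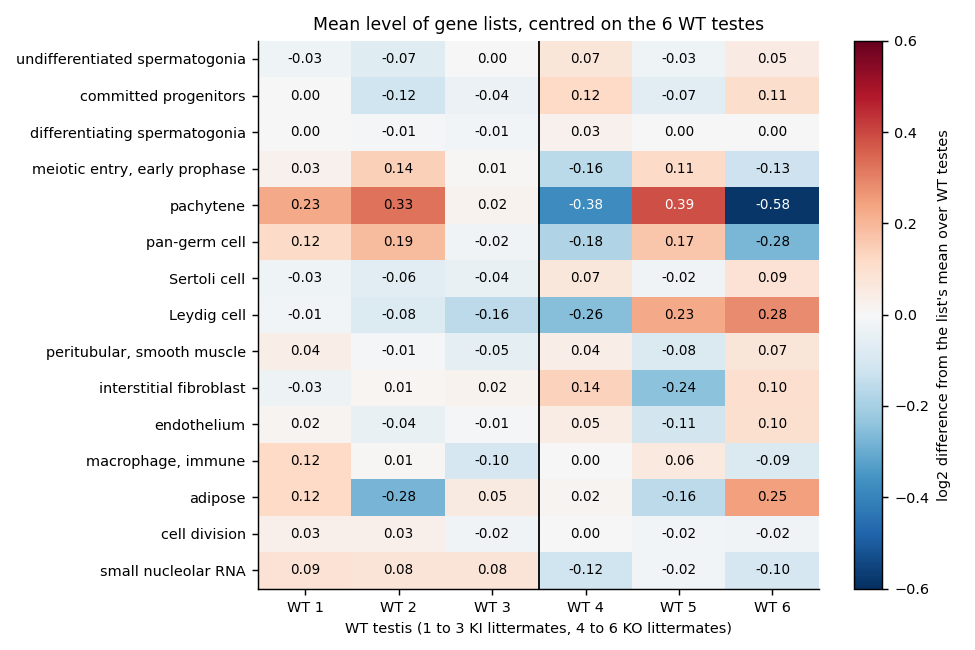
Mean log2 level of 15 gene lists in each WT testis after the list's own mean over the 6 testes is subtracted, so red is above that mean and blue below. The pachytene row has the widest span, from 6.96 in WT 6 to 7.93 in WT 5 before centring, and the Leydig cell row is high in WT 5 and WT 6.

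Smaller groups held single genes that were lowest in WT 4 and WT 6. Lrat, which stores retinol as esters, lay at 6.19, 6.37 and 5.95 in WT 1, WT 2 and WT 3, and 5.27, 6.53 and 5.35 in WT 4, WT 5 and WT 6, and was 1 of 2 genes with a 2-fold range among the 17 retinoic acid genes above background. The other, Rdh11, a retinol dehydrogenase family member, lay at 8.39, 8.67 and 8.23 in WT 1, WT 2 and WT 3, and 8.08, 8.53 and 7.64 in WT 4, WT 5 and WT 6. H1f6, the linker histone of spermatocytes, was the one with such a range among 10 histone genes above background, at 8.50, 8.57 and 8.26 in WT 1, WT 2 and WT 3, and 7.39, 8.53 and 7.44 in WT 4, WT 5 and WT 6. Rpl10l, the ribosomal protein that takes the place of the X-linked Rpl10 in meiosis, was the one such gene among 57 ribosomal protein genes above background, at 7.45, 7.57 and 7.17 in WT 1, WT 2 and WT 3, and 6.75, 7.54 and 6.36 in WT 4, WT 5 and WT 6. The lists for heat shock, circadian, glucocorticoid response, cholesterol synthesis and housekeeping genes held none with a 2-fold range among members above background. These genes were picked out after their values were seen.

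Of 483 microRNA genes 179 were above background, and 11 of these (6.15%) had a 2-fold range, against 2.31% of all genes above background. Mir468 varied most, with an SD of 1.03, at 6.88, 6.91 and 6.86 in WT 1, WT 2 and WT 3, and 5.26, 7.75 and 5.17 in WT 4, WT 5 and WT 6. It is shown because, as in most pachytene genes, its values were lowest in WT 4 and WT 6. The RefSeq mature sequence on GRCm38.p6 (chr6:81896629-81896655, minus strand) follows 5′ to 3′, with the seed, bases 2 to 8, in capitals. Whether the array signal came from the mature microRNA or from a longer transcript was not tested.
mmu-miR-468-5p: gACUGAUGuacugauaagaaacucagu

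The mutant testes give a view of the same genes in arrays that were not used to rank them. Of the 335 genes 87 (26.0%) also had a 2-fold range among the 3 KO testes, against 148 (1.02%) of all genes above background. Among the 3 KI testes 20 of them (5.97%) had such a range, against 35 (0.242%) of all genes above background. Fabp9 was at 5.69, 8.59 and 5.60 in KO 1, KO 2 and KO 3 and at 9.11, 9.71 and 9.59 in KI 1, KI 2 and KI 3. Piwil1 was at 6.12, 7.02 and 6.33 in the KO testes and 7.81, 8.48 and 8.20 in the KI testes. WT 4 and WT 6 therefore overlapped the KO range for Piwil1, whose highest KO value was 7.02 in KO 2. Of the 335 genes 287 (85.7%) had all 3 KO testes below the median of the 6 WT testes, against 24.0% of all genes above background. That median comes from the WT arrays that ranked the genes, and WT 4 and WT 6 were lowest for 281 of them. This share is therefore not independent of the ranking.

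The spread was unequal between the sets of littermates. The median SD within the 3 WT littermates of KI mice was 0.0851 and within the 3 WT littermates of KO mice 0.108, and it was larger in the latter for 9070 of 14480 genes. A range of at least 2-fold was found for 8 genes within the former and for 273 within the latter. The 8 genes were Cdk15, Dnah7a, Erdr1, Fabp4, Gm19484, Mir145a, Mir3473c and Olfr767. Dnah7a, a dynein heavy chain of the axoneme, lay at 6.63, 7.03 and 5.66 in WT 1, WT 2 and WT 3, and 5.04, 6.77 and 4.65 in WT 4, WT 5 and WT 6. WT 3 was the lowest of WT 1, WT 2 and WT 3 for this gene, and WT 4 and WT 6 lay lower still. After each set was centred on its own mean the count of genes with a 2-fold range was 278.

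A second pattern concerned Leydig cell genes and had another order of testes. Cyp17a1, the enzyme that commits steroid precursors to androgen, lay at 8.51, 8.18 and 7.88 in WT 1, WT 2 and WT 3, and 7.56, 9.99 and 10.23 in WT 4, WT 5 and WT 6. Star, which carries cholesterol into mitochondria, lay at 7.75, 7.67 and 7.97 in WT 1, WT 2 and WT 3, and 7.45, 9.82 and 9.52 in WT 4, WT 5 and WT 6. WT 5 and WT 6 were the highest testes for both genes and WT 4 the lowest. WT 5 and WT 6 lay at opposite ends for the pachytene genes, at list means of 7.93 and 6.96. The second principal component held 13.5% of the variance and put WT 5 (10.05) and WT 6 (9.11) apart from the other 4 (-7.09 to -3.28). Its leading genes at that end were Cyp17a1, Star, Alas1, Mir465, 6330415B21Rik, Fdx1, Mrap, Nr4a2 and Nr4a1, and they were looked at after that ranking was seen.

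Several of them serve steroid synthesis or its hormonal control. Alas1, the first enzyme of haem synthesis, lay at 8.98, 8.81 and 8.88 in WT 1, WT 2 and WT 3, and 8.78, 10.03 and 9.93 in WT 4, WT 5 and WT 6. Fdx1, the ferredoxin that passes electrons to mitochondrial steroid enzymes, lay at 7.14, 7.15 and 6.89 in WT 1, WT 2 and WT 3, and 7.14, 8.10 and 7.73 in WT 4, WT 5 and WT 6. Mrap, an accessory protein of the ACTH receptor, lay at 6.14, 6.45 and 6.02 in WT 1, WT 2 and WT 3, and 6.18, 7.05 and 6.92 in WT 4, WT 5 and WT 6. In each of the 3 genes WT 5 and WT 6 were above all the others. Nr4a1, a nuclear receptor switched on quickly by hormone signals, was at 8.30, 7.86 and 7.94 in WT 1, WT 2 and WT 3, and 8.33, 9.20 and 8.57 in WT 4, WT 5 and WT 6. Nr4a2, its relative, was at 6.01, 5.85 and 5.95 in WT 1, WT 2 and WT 3, and 6.01, 7.26 and 6.16 in WT 4, WT 5 and WT 6, so that WT 5 stood above the rest. Among other genes of the immediate early list Fos was highest in WT 4 (6.20), Egr1 in WT 3 (7.57) and Jun in WT 4 (8.56).

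Other genes of the same cells did not move with Cyp17a1. Cyp11a1, which makes the first steroid from cholesterol, lay at 8.96, 8.49 and 8.49 in WT 1, WT 2 and WT 3, and 8.19, 8.52 and 8.65 in WT 4, WT 5 and WT 6, highest in WT 1. Nr5a1, the transcription factor of steroid-making cells, lay at 9.21, 9.15 and 9.08 in WT 1, WT 2 and WT 3, and 9.36, 9.04 and 9.11 in WT 4, WT 5 and WT 6. Scarb1, a receptor for cholesterol-rich lipoprotein, lay between 10.45 and 10.72. Hsd3b1 was at 7.56, 7.70 and 7.39 in WT 1, WT 2 and WT 3, and 8.03, 7.71 and 7.71 in WT 4, WT 5 and WT 6, and was highest in WT 4. Hsd17b3, which makes testosterone, was at 7.57, 7.94 and 7.48 in WT 1, WT 2 and WT 3, and 8.53, 7.62 and 7.97 in WT 4, WT 5 and WT 6, highest in WT 4 as well. Hsd3b6, the form of 3-beta-hydroxysteroid dehydrogenase known from adult Leydig cells, was lowest there, at 8.98, 8.64 and 8.49 in WT 1, WT 2 and WT 3, and 5.86, 8.02 and 7.56 in WT 4, WT 5 and WT 6. Over the list 5 of the 10 members above background had a 2-fold range, namely Cyp17a1, Star, Hsd3b6, Fdx1 and Hsd17b3.

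The mutant testes also spread in these genes. Cyp17a1 was at 10.52, 10.47 and 10.69 in the KO testes and at 9.60, 7.11 and 9.80 in the KI testes. Star was at 9.997, 9.11 and 9.67 in the KO testes and at 9.53, 7.39 and 9.26 in the KI testes. KI 2 was lower than the other KI testes for both and below every WT testis. Between the WT sets Cyp17a1 differed by -1.07 (KI minus KO littermates, 95% interval -2.62 to 0.49, limma adjusted p = 0.811), since WT 4 lay with the WT littermates of KI mice.

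**Figure D4:**
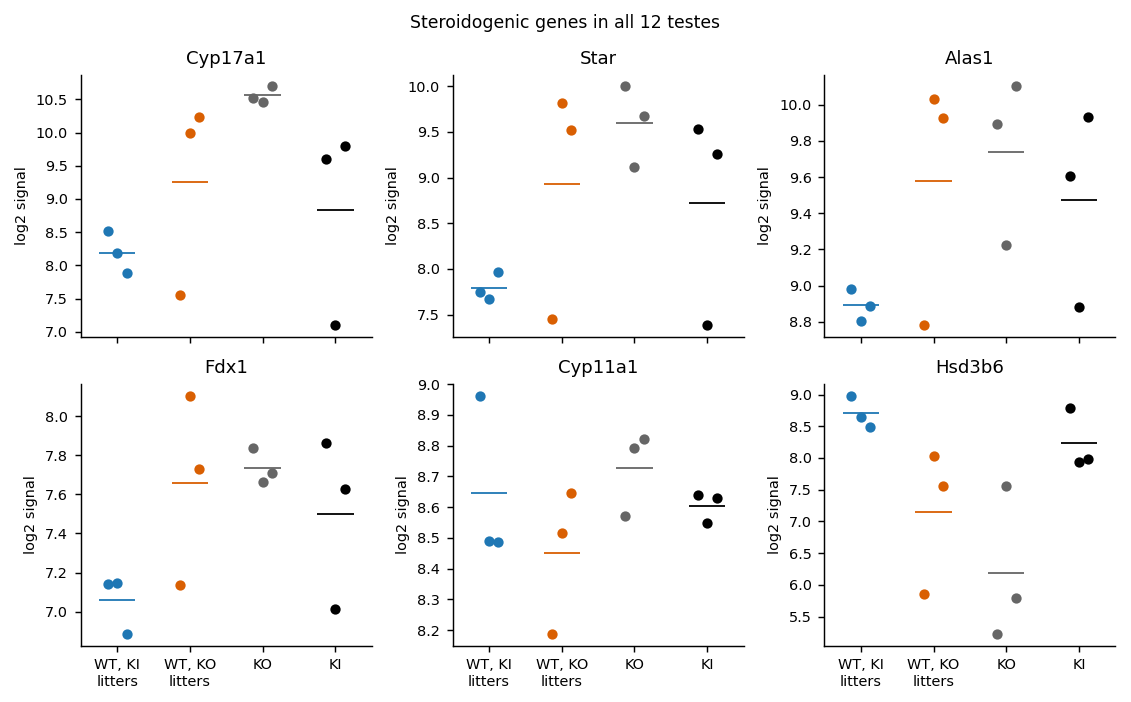
Log2 signal of Cyp17a1, Star, Alas1, Fdx1, Cyp11a1 and Hsd3b6 in all 12 testes by group, with each point a testis and each bar the mean of 3. In the WT littermates of KO mice, Cyp17a1 has WT 5 and WT 6 near 10 and WT 4 at 7.56, and the y axes differ between panels and do not start at 0.

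A few other genes had other orders of testes. Erdr1 and Eif2s3y among them were highest in WT 4 and WT 6, where most pachytene genes were lowest. Fabp4, a fatty acid carrier of fat cells and of the endothelium, lay at 6.54, 5.93 and 6.94 in WT 1, WT 2 and WT 3, and 6.34, 6.03 and 7.51 in WT 4, WT 5 and WT 6. Car3, a carbonic anhydrase abundant in fat, lay at 7.85, 7.20 and 8.13 in WT 1, WT 2 and WT 3, and 7.09, 7.15 and 8.52 in WT 4, WT 5 and WT 6. Both were highest in WT 6, with WT 3 next. The adipose list as a whole had a mean of 5.62 to 6.15 and 2 of its 7 members above background, Fabp4 and Retn, had a 2-fold range. The part of fat tissue in these values was not tested. Erdr1, a gene of the region shared by the X and Y chromosomes, lay at 10.14, 10.80 and 9.78 in WT 1, WT 2 and WT 3, and 11.21, 10.85 and 11.37 in WT 4, WT 5 and WT 6. The Y-linked gene Eif2s3y lay at 8.41, 8.95 and 8.74 in WT 1, WT 2 and WT 3, and 9.12, 8.92 and 9.28 in WT 4, WT 5 and WT 6, with WT 1 lowest, and 6 of 7 Y-linked genes had a lower mean in the WT littermates of KI mice (median difference -0.21, or -0.06 without WT 4).

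At the other end stood genes with almost no spread. The 10 steadiest genes above the median level were Kdm6b, Meak7, Stx5a, Ammecr1, Vps28, Chchd3, Rn7sk, Rabl6, Qsox1 and Tyk2, with SDs of 0.0120 to 0.0172. Kdm6b, a histone demethylase, lay at 9.59, 9.60 and 9.60 in WT 1, WT 2 and WT 3, and 9.60, 9.58 and 9.62 in WT 4, WT 5 and WT 6. Rn7sk, the 7SK RNA that holds back transcription elongation, lay at 13.83, 13.84 and 13.86 in WT 1, WT 2 and WT 3, and 13.85, 13.85 and 13.82 in WT 4, WT 5 and WT 6, close to the highest value in the data, where a difference may not register. They were ranked out of all genes for this, and in the 6 mutant testes, which did not enter the ranking, their ranges ran from 0.04 to 0.32. Kdm6b was at 9.59, 9.60 and 9.67 in the KO testes and 9.86, 9.78 and 9.76 in the KI testes. All 3 KI testes lay above the WT testes, but the WT range of 0.03 was narrow by the ranking. That difference was not tested. Rn7sk was at 13.85, 13.83 and 13.85 and 13.86, 13.85 and 13.82.

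The comparison of litters asked whether WT littermates of KI mice differ from WT littermates of KO mice. No gene passed in limma after Benjamini-Hochberg adjustment (0 of 22180, 0.0%), with a smallest adjusted p of 0.578. At an unadjusted p under 0.05 there were 1274 genes (5.74%), 429 higher (1.93%) and 845 lower (3.81%) in the WT littermates of KI mice. The median 95% interval reached 0.245 to either side of a difference, so a smaller difference lies within the interval of a typical gene. With 3 testes against 3 the exact two-sided permutation test of 1 gene has 20 splits and cannot go below p = 0.1. The groups did not overlap for 2600 genes (11.7%), with the WT littermates of KI mice all above for 842 (3.8%) and all below for 1758 (7.93%).

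The count depended on WT 5 and on the variance model. Without WT 5 limma called 79 genes (0.356%), 77 of them higher in the WT littermates of KI mice. Of the 79 genes 76 had a 2-fold range over the WT testes, 77 were lowest in WT 4 and WT 6, and 16 were among the 20 most varied genes. Only WT 4 and WT 6 then stood for the KO litters. With a variance that follows intensity limma called 4 genes (0.018%), Rny1, Snora28, Snora34 and Snord22. Leaving out any other testis gave 0.

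The 20 genes of smallest p were taken for description. They had adjusted p of 0.578 (8 genes) or 0.807, and the WT sets did not overlap for any of them, as the ranking by p favours. Of the 20 genes 14 were higher and 6 lower in the WT littermates of KI mice, and 9 were below the background limit. The 11 above it included 5 small nucleolar RNAs, a Y RNA and a 5S ribosomal RNA gene.

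Small nucleolar RNAs guide the chemical modification of ribosomal RNA, and those of the Snora class direct pseudouridylation. Snora34 lay at 10.58, 10.73 and 10.71 in WT 1, WT 2 and WT 3, and 9.62, 9.87 and 9.85 in WT 4, WT 5 and WT 6, a difference of 0.89 (95% interval 0.66 to 1.12). Snora15 lay at 10.25, 10.19 and 10.23 in WT 1, WT 2 and WT 3, and 9.40, 9.69 and 9.30 in WT 4, WT 5 and WT 6, a difference of 0.77. Both had all 3 WT littermates of KI mice above all 3 of KO mice. Snora28 lay at 9.43, 9.54 and 9.51 in WT 1, WT 2 and WT 3, and 8.80, 8.98 and 8.95 in WT 4, WT 5 and WT 6, a difference of 0.58. Snora69 lay at 7.15, 7.54 and 7.76 in WT 1, WT 2 and WT 3, and 6.51, 6.41 and 6.67 in WT 4, WT 5 and WT 6, a difference of 0.96. Snord22, of the class that bears C and D boxes, lay at 11.69, 11.72 and 11.82 in WT 1, WT 2 and WT 3, and 11.11, 11.20 and 11.23 in WT 4, WT 5 and WT 6, a difference of 0.56. In these 5 genes WT 5 lay with WT 4 and WT 6, which the choice by p between litters favours.

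Rny1 and n-R5s136 were also among the 20, and Rny3 and Rpph1 were looked at beside them with their values in view. Rny1, a Y RNA bound by the Ro60 protein, lay at 11.15, 11.06 and 11.09 in WT 1, WT 2 and WT 3, and 10.51, 10.49 and 10.41 in WT 4, WT 5 and WT 6, a difference of 0.63 (95% interval 0.46 to 0.80). Rny3, the second Y RNA measured, lay at 8.92, 8.82 and 8.93 in WT 1, WT 2 and WT 3, and 8.56, 8.32 and 8.27 in WT 4, WT 5 and WT 6. The 5S ribosomal RNA gene n-R5s136 lay at 10.78, 10.62 and 10.86 in WT 1, WT 2 and WT 3, and 9.90, 10.16 and 10.19 in WT 4, WT 5 and WT 6, a difference of 0.67. Rpph1, the RNA of ribonuclease P, lay at 12.49, 12.46 and 12.33 in WT 1, WT 2 and WT 3, and 12.26, 12.23 and 12.18 in WT 4, WT 5 and WT 6. In these 4 genes the WT littermates of KI mice lay above those of KO mice without overlap. The same held for 2 of 3 genes annotated as ribonuclease P RNA, the kind of Rpph1, against 3.8% of all genes. It held for 1 of 6 annotated as small nuclear RNA. Both classes are small and neither was tested.

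Small nucleolar RNA genes are described here as a whole. Of 73 measured 57 were higher in the WT littermates of KI mice, with a median difference of 0.14 against -0.01 over all genes. All 3 WT littermates of KI mice were above all 3 of KO mice for 27 (37.0%, against 3.8% of all genes) and below for 5 (6.85%, against 7.93%). At an unadjusted p under 0.05 there were 19 higher (26.0%, against 1.93%) and 1 lower, and 0 passed after adjustment. For 26 of the 73 (35.6%, against 10.8% of all genes) the lowest testes were WT 4 and WT 6, and the mean of the group was 8.53 in WT 4, 8.64 in WT 5 and 8.55 in WT 6, against 8.73 to 8.74 in WT 1, WT 2 and WT 3. The part of what sets WT 4 and WT 6 apart in this difference was not tested. Both classes had a positive median, with a median of 0.11 and 9 of 26 without overlap above for the Snora genes, and of 0.16 and 18 of 47 for the Snord genes. Leaving out 1 testis moved the median of the 73 genes between 0.11 and 0.17. Among 80 genes annotated as small nucleolar RNA in RefSeq, 27 lay above and 8 below without overlap, with a median difference of 0.11. Slide and scan dates were not known here.

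**Figure D5:**
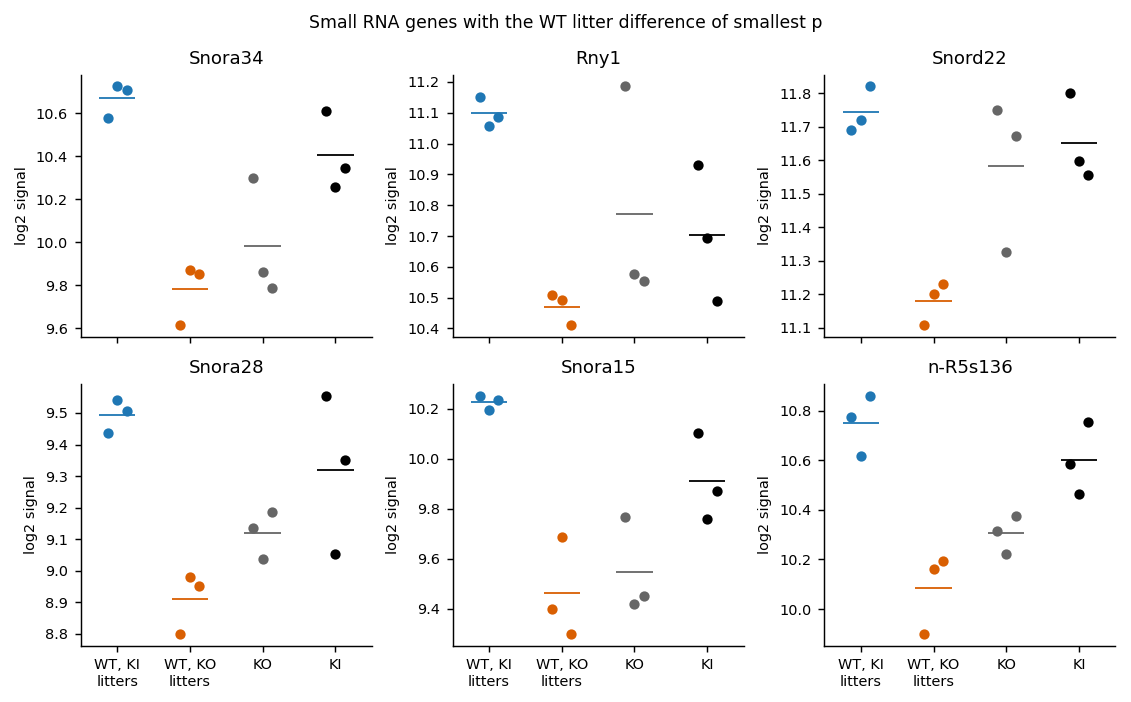
Log2 signal of Snora34, Rny1, Snord22, Snora28, Snora15 and n-R5s136 in all 12 testes by group, with each point a testis and each bar the mean of 3, on y axes that differ between panels and do not start at 0. The 3 WT littermates of KI mice lie above the 3 WT littermates of KO mice in every panel, and KO and KI testes overlap in every panel but that of n-R5s136.

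Genes lower in the WT littermates of KI mice among the 20 were mostly dim. Mir365-2 lay at 3.44, 3.38 and 3.04 in WT 1, WT 2 and WT 3, and 4.27, 4.04 and 4.29 in WT 4, WT 5 and WT 6, below the background limit in all 6 testes. Clec4f and Camk2n2 were the ones above the limit on average. Clec4f, a lectin of resident macrophages of the liver, lay at 5.43, 5.21 and 5.40 in WT 1, WT 2 and WT 3, and 5.91, 5.91 and 5.79 in WT 4, WT 5 and WT 6. Camk2n2, an inhibitor of calcium and calmodulin dependent kinase II, lay at 5.63, 5.65 and 5.56 in WT 1, WT 2 and WT 3, and 6.05, 6.03 and 6.26 in WT 4, WT 5 and WT 6. Its difference was -0.50, and the 3 KO and 3 KI testes spread from 5.54 to 6.41.

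The KI and KO testes come from the same kinds of litter and share no array with the WT testes, but genotype and litter origin cannot be told apart in them. Limma on those 6 testes called 0 of 22180 genes (0.0%), with 3401 (15.3%) at an unadjusted p under 0.05. Of the 20 genes named for the WT litters 17 (85%) had the same sign for KI minus KO testes, against 61.9% of all genes, and 5 had an unadjusted p under 0.05. Leaving out 1 mutant testis gave 15 to 18. Snora34 differed by 0.42 and Snora15 by 0.36 there, and Rny1 by -0.07. The 73 small nucleolar RNA genes had a median of -0.08 in that comparison, against -0.05 over all genes, with medians of 0.04 for the Snora genes and -0.12 for the Snord genes, and 1 gene lay higher and 1 lower without overlap, against 9.56% and 12.6% of all genes.

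Lists of cell types differed little between the WT sets. In the pachytene list 28 of 32 members were higher in the WT littermates of KI mice, against 9987 of 22180 genes in all. The median difference of the list was 0.27, with 0 members without overlap. That median was 0.47 without WT 5 and 0.12 without WT 6. Of 27 Sertoli cell genes 23 were lower in the WT littermates of KI mice, against 12193 of 22180 genes in all. Lower means were also found for 11 of 13 housekeeping and 13 of 15 committed progenitor genes. Of 14 interstitial fibroblast genes 5 were lower and 9 higher. The median difference of the Sertoli cell list was -0.08, and 8 members lay lower without overlap (29.6%, against 7.93% of all genes). Among those 8, Kitl, which binds KIT on spermatogonia, lay at 9.14, 9.07 and 9.10 in WT 1, WT 2 and WT 3, and 9.23, 9.30 and 9.40 in WT 4, WT 5 and WT 6. Fshr, the receptor of follicle stimulating hormone, lay at 8.90, 8.96 and 9.01 in WT 1, WT 2 and WT 3, and 9.05, 9.12 and 9.17 in WT 4, WT 5 and WT 6. Gdnf, the growth factor of stem spermatogonia, lay at 5.85, 5.80 and 5.72 in WT 1, WT 2 and WT 3, and 6.03, 5.90 and 6.18 in WT 4, WT 5 and WT 6. None passed after adjustment, and the largest of these 3 differences in size was -0.24 for Gdnf.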

How the data were processed

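Whole testes of 12 mice were measured on 1 Affymetrix whole-transcript array each, and only the 6 WT arrays enter the comparisons, with the 6 mutant arrays set beside them. The deposited values are log2 signals per transcript cluster, from 0.91 to 13.93, and the tools that the submitters' processing notes name are RMA, Partek 6.6 and Affymetrix Expression Console, with no separate roles stated. The background correction, filters and annotation behind them are unknown here. RMA gives all arrays one distribution of values, so differences are relative within an array. Trizol extraction, column purification with DNase and labelling with the WT PLUS kit are given in the labels' protocols.

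Of 41345 clusters 23521 had 1 gene symbol in the platform annotation, 1814 several and 16010 none. A gene was represented by its single-symbol cluster of highest mean over the 12 arrays (1082 genes had over 1), which gave 22180 genes, and 21994 of them matched a RefSeq table on GRCm38.p6. Sequences were taken from RefSeq tables of that build, and probe positions were not known here.

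WT littermates of KI mice were compared with WT littermates of KO mice by a two-sided test in limma 3.58.1 (lmFit, then eBayes; R 4.3.3), with Benjamini-Hochberg adjustment over 22180 genes at 0.05 and no filter on dim genes. KI and KO testes were compared in a fit of their own. The fit was tested on simulated data. Summaries used Python 3.11.15 with numpy 2.4.6, pandas 2.3.3 and scipy 1.17.1, and figures matplotlib 3.10.9.

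The genes named were the 20 of smallest p between litters (since none passed), the 20 of largest SD above background other than microRNA and small nucleolar RNA genes, the 10 of smallest SD above the median level, the SoxB1 genes, and up to 4 members of each of 33 lists by SD and, for cell types, by level. Other genes were picked with their values in view. The members and lists were chosen with earlier results of these data known, and no list was tested as a set. Alternatives were other normalizations, filters, cluster rules, variance models, a covariate and leaving out each testis.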

Additional observations from a re-analysis of the deposited data

How the results depend on the processing

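The count of genes called between the WT litters was 0 under median centring, a new quantile normalization, the background limit as a filter, every single-symbol cluster tested, the mean of a gene's clusters, a fit of all 12 arrays, array weights, and the mean of the pachytene list as a covariate. It was 4 with an intensity trend in eBayes. Leaving out 1 WT testis gave 0 to 79, with 79 without WT 5, and the cause was not tested. The count of 335 genes with a 2-fold range was 335 with median centring, 330 with quantile normalization, 326 with the mean of clusters and 278 after centring within litters. Without the background limit it was 800, because dim genes enter, and at 1.5-fold, an alternative chosen after seeing the data, it was 1562. Leaving out 1 WT testis gave 250 to 323, and leaving out WT 4 and WT 6 together, also added after seeing the data, gave 39. The count of 17 genes with the same sign in the mutants was 15 to 18 with 1 mutant testis left out, also chosen after seeing the data. Of the values for single genes between litters 217 kept their direction and side of the threshold and 3 passed it without WT 5 (Snora34 at 0.94, Snora15 at 0.88 and Gm6020 at 0.83). The intensity trend was run for the count alone, and its 4 genes, Rny1, Snora28, Snora34 and Snord22, are all among the 20 named. For list medians 248 moved by less than the spread and 16 by more. No paired analysis was possible because the WT sets share no replicate numbers in the labels. The number of arrays and the signal over background limit what can be seen, and values of genes below the background limit carry little weight.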
